A study of Mus musculus with 6 samples.

Results

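The receptors of the IL-1 family other than ST2 were followed in mouse primary keratinocytes given recombinant IL-33. They are the co-receptor gene Il1rap, the signalling receptors Il1r1, Il1rl2, Il18r1 and Il18rap, and the negative regulators Il1r2 and Sigirr. The members were taken by symbol from the gene tables, which gave 7 genes of 52550, and by gene from the transcript tables, which gave 36 transcripts of 131146. Both groups were epidermal keratinocytes of wild-type C57BL/6 mice at postnatal day 0 to 2, cultured for 2 days. One group then received recombinant IL-33 for 12 h (3 libraries) and the other did not (3 libraries). The sources used here give no dose of IL-33 and do not say from which culture, litter or animal each replicate came. The p-values therefore cover the spread among 3 libraries a group, and that spread may be technical.

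IL-1 family cytokines act through pairs of receptor chains. A ligand-binding chain takes up the cytokine and recruits an accessory chain, and the TIR domains of both chains then dock the adaptor MyD88 and activate NF-kB. Il1rap encodes the accessory chain that is shared by the receptors for IL-1 (Il1r1), IL-33 (Il1rl1, ST2) and IL-36 (Il1rl2), whereas IL-18 uses a pair of its own, Il18r1 and Il18rap. Il1r2 encodes a decoy that binds IL-1 and lacks a TIR domain, and Sigirr encodes an inhibitory receptor with a single immunoglobulin domain. In skin, keratinocytes are a well-known source and target of IL-1 and IL-36.

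The libraries held 43860488, 34188173 and 44255925 deposited counts with IL-33 and 44692876, 41456441 and 45266298 in untreated cells. Transcript values were rebuilt from FPKM and transcript length on the scale of the deposited counts. Low rebuilt values pile up near multiples of 4, so 4 deposited counts were taken as 1 sequenced fragment. This scale is an estimate from the values, and all fragment numbers given here rest on it. On it the libraries held 8547043 to 11316574 fragments. The floor used below is 3 fragments, or 12 deposited counts, per library, and it covers counting error only. Over all genes, 11 of 15778 changed in edgeR's quasi-likelihood test at an adjusted p under 0.05, which is 0.0697%.

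On GRCm38 (mm10), 6 receptor genes of the family lie within 477627 bases on the forward strand of chromosome 1 (chr1:40074079-40551705). Their order is Il1r2 (ENSMUSG00000026073.13, chr1:40074079-40125231), Il1r1 (ENSMUSG00000026072.12, chr1:40225080-40317257), Il1rl2 (ENSMUSG00000070942.8, chr1:40324610-40367562), Il1rl1, Il18r1 (ENSMUSG00000026070.15, chr1:40465552-40500854) and Il18rap (ENSMUSG00000026068.11, chr1:40515362-40551705). Il1rap (ENSMUSG00000022514.14) lies on the forward strand at chr16:26581704-26730117, and Sigirr (ENSMUSG00000025494.8) on the reverse strand at chr7:141091175-141100572. The annotation used is GENCODE release M21.

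The annotated Il1rap transcripts part at the exon ends where membrane-bound and soluble forms diverge. Il1rap-201 encodes the full co-receptor of 570 codons, and a hydropathy scan found in it a hydrophobic stretch at residues 360 to 378. Il1rap-206 reads on past the end of the seventh coding exon and stops after 360 codons. It contains no such stretch and is called the soluble form here. The sequences below show this point on the forward strand of GRCm38. The lower-case bases (chr16:26701207-26701236) are shared, and the capitals are the bases that follow in each form: chr16:26710481-26710510 in the next exon of Il1rap-201, and chr16:26701237-26701268, down to the stop codon, in Il1rap-206.
Il1rap-201: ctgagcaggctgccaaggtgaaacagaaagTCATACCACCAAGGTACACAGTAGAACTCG
Il1rap-206: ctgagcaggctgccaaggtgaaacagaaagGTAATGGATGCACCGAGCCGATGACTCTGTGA

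A further choice falls at the end of the ninth coding exon, where Il1rap-202 replaces the last coding exon of Il1rap-201. The TIR-coding end differs in this longer form of 685 codons, a form known from brain. The shared bases are chr16:26712231-26712260, and the capitals are chr16:26714701-26714730 in Il1rap-201 and chr16:26722356-26722385 in Il1rap-202.
Il1rap-201: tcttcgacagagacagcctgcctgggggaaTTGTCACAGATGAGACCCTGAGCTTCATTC
Il1rap-202: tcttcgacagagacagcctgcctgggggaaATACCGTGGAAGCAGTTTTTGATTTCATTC

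Il18r1 has a comparable fork at the end of the eighth coding exon. Il18r1-202 continues into the exons that end a 537-codon chain. Il18r1-203 reads on to a stop codon and makes a 372-codon chain that keeps the hydrophobic stretch (residues 329 to 347) but lacks the last 2 coding exons. The shared bases are chr1:40491187-40491216, and the capitals are chr1:40495749-40495778 in Il18r1-202 and chr1:40491217-40491233 in Il18r1-203.
Il18r1-202: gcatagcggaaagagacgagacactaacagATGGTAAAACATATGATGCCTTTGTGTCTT
Il18r1-203: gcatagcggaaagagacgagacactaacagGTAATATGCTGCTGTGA

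RNA of all 7 genes was present in both groups, and the levels differed between genes. Gene levels are given as deposited FPKM, fragments per kilobase of exon scaled to depth. Il1r1, the IL-1 receptor, had 12.9, 13.9 and 12.7 FPKM with IL-33 and 12.9, 12.5 and 12.9 FPKM in untreated cells. Il1rl2, the IL-36 receptor, had 9.15, 8.68 and 8.99 FPKM with IL-33 and 7.85, 8.49 and 8.44 FPKM in untreated cells. Il1rap had 2.66, 2.53 and 2.57 FPKM with IL-33 and 3.21, 2.72 and 2.77 FPKM in untreated cells. The groups overlapped for Il1r1 and did not overlap for Il1rl2 and Il1rap, with Il1rl2 higher and Il1rap lower in the IL-33 libraries.

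The other 4 genes lay at about 1 FPKM or below. Il18r1 had 1.12, 0.603 and 0.715 FPKM with IL-33 and 0.567, 0.561 and 0.64 FPKM in untreated cells, and the highest value was that of IL-33 replicate 1. Sigirr had 0.757, 0.31 and 0.472 FPKM with IL-33 and 0.622, 0.398 and 0.704 FPKM in untreated cells. Il1r2 had 0.648, 0.332 and 0.447 FPKM with IL-33 and 0.25, 0.232 and 0.746 FPKM in untreated cells. Here untreated replicate 3 stood at the top of all 6 libraries and the other untreated libraries at the bottom. Il18rap had 0.191, 0.211 and 0.186 FPKM with IL-33 and 0.235, 0.201 and 0.141 FPKM in untreated cells.

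**Figure D1:**
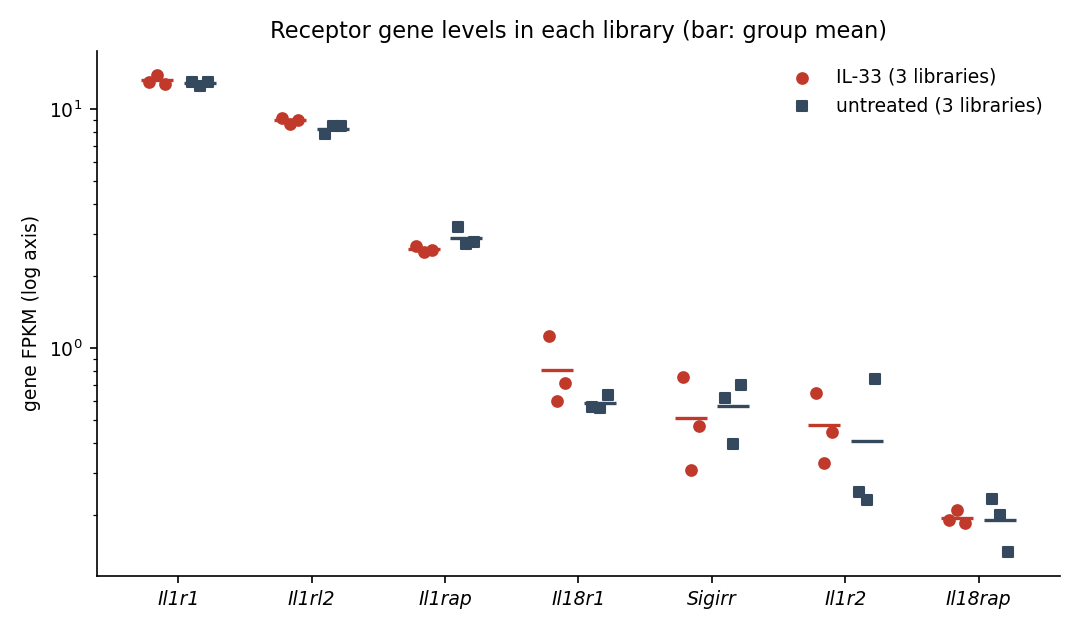
Gene FPKM (vertical log axis) of the 7 receptor genes in each library, with IL-33 libraries as circles to the left of untreated libraries as squares and bars for group means. Il1r1, Il1rl2 and Il1rap lie above 2.5 FPKM in every library with narrow spreads, and the other 4 genes lie at or below 1.12 FPKM with wider ones.

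The depth behind these values differed by gene. Il1r1 rested on 835.5 to 1029 fragments per library, Il1rl2 on 560.5 to 760.5 and Il1rap on 273 to 454.2. Il18r1 rested on 27.75 to 65.75 fragments, Sigirr on 9 to 28.75, Il18rap on 12 to 19.75 and Il1r2 on 5.25 to 18.5. All 7 genes were above the floor of 3 fragments in every library. Among the 23479 genes above 0, Il1r1 stood at the percentile 83.5 of mean FPKM and Il1rap at 61.0, whereas Il18rap stood at 36.7.

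The order of levels by gene FPKM over the 6 libraries was Il1r1, Il1rl2, Il1rap, Il18r1, Sigirr, Il1r2 and Il18rap. The ranges of Il1r1 and Il1rl2, of Il1rl2 and Il1rap, and of Il1rap and Il18r1 did not overlap, while each neighbouring pair from Il18r1 down did. Part of this order depended on the length used. Gene FPKM is divided by all annotated exon bases of the gene, which understates a gene with rarely used exons, and for Il1rap these come to 11360 bases, against 4520 in Il1rap-201. When the FPKM of the transcripts was summed instead, Il1rl2 (17.0 to 18.7) and Il1r1 (16.9 to 18.9) overlapped, Il1rap had a mean of 7.08 ± 0.679 FPKM (SD, n = 6), and Il1rap still lay below both and above Il18r1 (1.11 to 2.57).

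By gene FPKM Il1rl1, the ST2 gene, had 9.0 to 9.74, below Il1r1 (12.5 to 13.9) and overlapping Il1rl2 (7.85 to 9.15). On the summed scale Il1rl1 stood highest at 22.8 to 24.4 FPKM. Most of its signal was assigned to a 337-codon form with no hydrophobic stretch, with 93.4%, 93.6% and 86.2% of the summed FPKM with IL-33 and 96.3%, 97.1% and 96.3% in untreated cells.

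The comparison of the groups asks whether 12 h of IL-33 changes the RNA of the other receptors of the family. None of the 7 genes passed the test, against 0.0697% of all genes tested, and none had an unadjusted p under 0.05 with edgeR, against 6.74% of all genes, or with DESeq2. None was called at any of the 17 settings tried. Among these settings, Il18r1 alone reached an unadjusted p under 0.05 at least once. The log2 fold changes were above 0 for 5 genes and below 0 for 2, with a median of 0.05, against 0.0018 over all genes tested. The groups did not overlap for 2 of 7 genes (28.6%), against 13.7% of all genes tested. In bulk RNA, fewer cells of a type and less RNA per cell cannot be told apart.

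Il1rap averaged 2.59 ± 0.0658 FPKM with IL-33 and 2.90 ± 0.273 FPKM in untreated cells (SD, n = 3 each). Its log2 fold change was -0.16 (SE 0.084; interval at 95% from -0.35 to 0.02; adjusted p = 0.763 in edgeR), and all 3 IL-33 libraries lay below the 3 untreated ones. The interval spans folds of 0.783 to 1.02. Untreated replicate 1 was the highest library, and without it the log2 fold change was -0.09. Without untreated replicate 2 it was -0.21.

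Among the ligand-binding chains, Il1rl2 differed by 0.11 on the log2 scale (SE 0.061; interval at 95% from -0.02 to 0.25; adjusted p = 0.763 in edgeR), higher in 3 of 3 IL-33 libraries, and by 0.07 without untreated replicate 1. Il1r1 had a log2 fold change of 0.05 (SE 0.055, edgeR adjusted p = 0.9), or 0.01 without IL-33 replicate 2, and its interval spans folds of 0.95 to 1.13. These are the narrowest limits among the 7 genes. With 1 library left out, Il1rl2 ranged from 0.07 to 0.13 and Il1r1 from 0.01 to 0.07 on the log2 scale.

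The IL-18 receptor chains were measured less closely. Il18r1 differed by 0.46 on the log2 scale (SE 0.24, interval at 95% from -0.08 to 1.01, adjusted p = 0.763 in edgeR). Without IL-33 replicate 1 the log2 fold change was 0.17, and without IL-33 replicate 2 it was 0.63. Il18rap had a log2 fold change of 0.03 (interval at 95% from -0.63 to 0.70; adjusted p = 0.989 in edgeR).

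The negative regulators had the widest intervals. For Il1r2 the log2 fold change was 0.21 (interval at 95% from -0.96 to 1.38; adjusted p = 0.963 in edgeR), and it was 0.98 without untreated replicate 3 and -0.06 without IL-33 replicate 1. For Sigirr it was -0.15 (interval at 95% from -0.98 to 0.67; adjusted p = 0.962 in edgeR), and 0.10 without IL-33 replicate 2. At these depths a doubling of Il1r2 lies inside the interval of the fold (0.516 to 2.6).

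**Figure D2:**
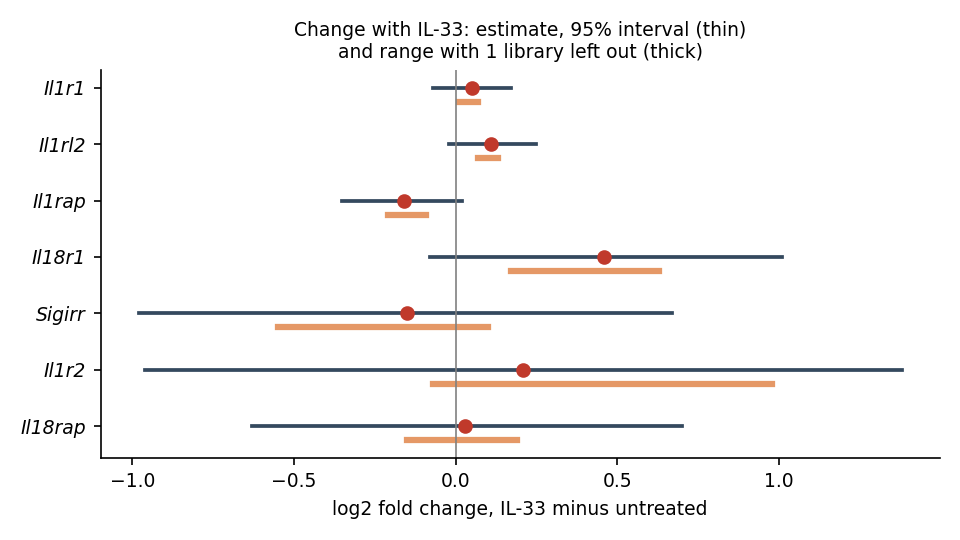
Log2 fold change (IL-33 minus untreated) of the 7 genes, with the 95% interval of the edgeR fit as a thin line and the range with 1 library left out as a thick line below it. Every interval includes 0, and the intervals are narrow for Il1r1, Il1rl2 and Il1rap and wide for Il1r2, Sigirr and Il18rap.

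The balance of ligand-binding chains to co-receptor was described from transcripts that encode a membrane-spanning stretch. The summed FPKM of Il1r1, Il1rl2 and membrane Il1rl1 per FPKM of membrane Il1rap was 5.26, 5.48 and 5.51 with IL-33 and 4.01, 4.75 and 4.98 in untreated cells. The groups did not overlap, with means of 5.42 ± 0.137 with IL-33 and 4.58 ± 0.507 in untreated cells (SD, n = 3 each). This ratio carries no test, since it was chosen after its values were seen. Membrane Il1rap had 6.56, 6.32 and 6.31 FPKM with IL-33 and 7.95, 6.75 and 6.51 in untreated cells, so here its groups overlapped. Membrane Il1r1 had 16.9, 18.2 and 16.6 FPKM with IL-33 and 16.9, 16.4 and 16.8 in untreated cells, also overlapping. Membrane Il1rl2 had 16.2, 15.6 and 16.2 FPKM with IL-33 and 14.1, 15.0 and 14.7 in untreated cells, without overlap. Membrane Il1rl1 added 1.42 ± 0.615 FPKM with IL-33 and 0.82 ± 0.0902 FPKM in untreated cells, and for it the groups overlapped.

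Most Il1rap RNA was assigned to the 570-codon membrane form. Il1rap-201 had 6.46, 6.28 and 6.30 FPKM with IL-33 and 7.88, 6.71 and 6.45 FPKM in untreated cells. Its share of the gene's transcript FPKM was 94.9%, 98.1% and 95.8% with IL-33 and 96.0%, 97.1% and 85.5% in untreated cells. Untreated replicate 3 stood apart with the low share.

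The soluble form Il1rap-206 was found in every library at low counts. It had 29, 5 and 31 deposited counts with IL-33 and 31, 18 and 67 in untreated cells, so IL-33 replicate 2 was below the floor. Its share was 3.76%, 0.772% and 4.03% with IL-33 and 3.21%, 2.31% and 7.57% in untreated cells. The difference of the mean shares was -1.51 percentage points (two-sided exact permutation p = 0.6, of 20 splits with a smallest p of 0.1), and 0.0932 without untreated replicate 3.

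The form with the alternative last coding exon, Il1rap-202, had 21, 7 and 3 deposited counts with IL-33 and 15, 8 and 12 in untreated cells. Its share of 0.205% to 1.37% rests on 0.75 to 5.25 fragments per library, and the difference of the mean shares was 0.0574 points (two-sided exact permutation p = 0.9). Il1rap-203, of the same kind, was listed at 0 in every library. Il1rap-204 has its coding part within the same alternative exon and is not counted in the share above. It had 5 deposited counts (0.518%) in IL-33 replicate 2 and was listed at 0 elsewhere. Il1rap-205, annotated as a target of nonsense-mediated decay, had 38 deposited counts in untreated replicate 3 and was listed at 0 elsewhere. The split of counts between forms that share most exons is an estimate of the authors' software.

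**Figure D3:**
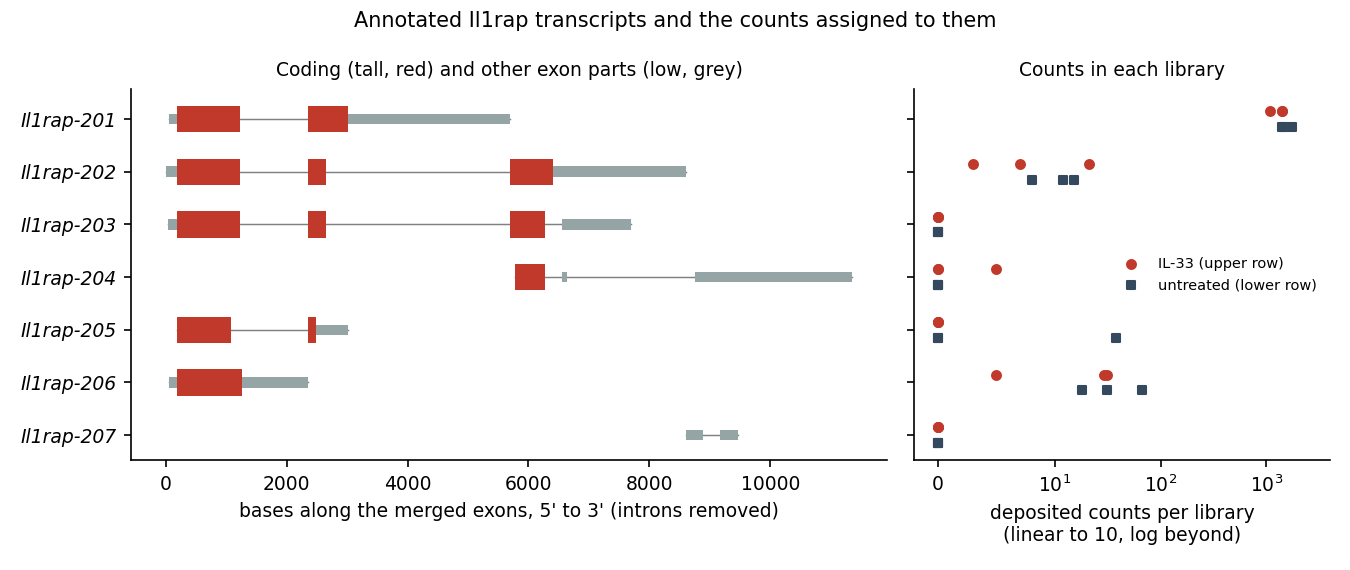
Left, the 7 annotated Il1rap transcripts drawn along the merged exons in bases, coding parts tall and other exon parts low. Right, deposited counts of each transcript per library, IL-33 above untreated, on an axis linear to 10 and logarithmic beyond. Il1rap-201 has 1075 to 1771 counts in every library, and no other transcript exceeds 67.

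Il18r1 stood out for the share of its short form. The 372-codon transcripts Il18r1-203 and Il18r1-204 held 69.4%, 89.7% and 34.0% of the gene's transcript FPKM with IL-33 and 92.6%, 95.5% and 70.5% in untreated cells. The 537-codon form held 10.4%, 10.3% and 56.9% with IL-33 and 7.37%, 4.51% and 19.7% in untreated cells. The short form was thus the larger in 5 of 6 libraries, and in IL-33 replicate 3 the long form was. These groupings carry no test, since they were made once the values had been seen. They rest on 8.25 to 41.75 fragments for the short form and 3 to 32.5 for the long one.

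**Figure D4:**
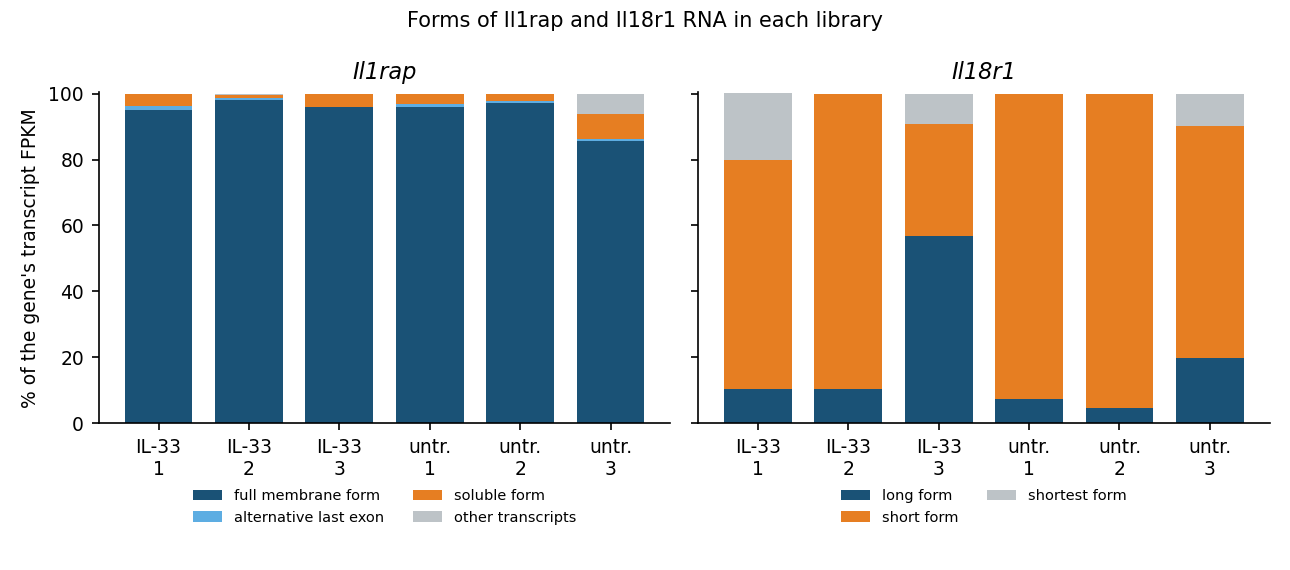
Share of the gene's summed transcript FPKM (stacked bars from 0 to 100%) held by each form of Il1rap and Il18r1 in each library, with IL-33 libraries left of untreated libraries. The full membrane form (570 codons) holds 85.5% to 98.1% of Il1rap, and the short form (372 codons, against 537 in the long form) holds 34.0% to 95.5% of Il18r1.

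Of the 36 transcripts, 8 were listed at 0 in all libraries, 15 were above 0 in 1 to 5 libraries and 13 in all 6. Of these, 17 passed the filter and were tested. None was called, against 0.0299% of all transcripts tested, none had an unadjusted p under 0.05 with edgeR, against 4.24% of all transcripts, or with DESeq2, and none had groups without overlap, against 11.3% of all transcripts. Il18r1-202 had the lowest p, 0.175 (log2 fold change 1.28 within -0.78 to 3.35 at 95%; adjusted p = 1.0 in edgeR). Leaving out IL-33 replicate 3 gave 0.50 for this log2 fold change, and leaving out untreated replicate 3 gave 2.12.

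For Il1r1 and Il1rl2 a single full-length transcript carried most of the signal in every library. Il1r1-202, of 573 codons, held 94.5%, 96.1% and 92.9% with IL-33 and 97.5%, 97.3% and 94.8% in untreated cells. Il1r1-201, of 576 codons, had 199, 0 and 174 deposited counts with IL-33 and 0, 0 and 126 in untreated cells. Il1rl2-204, of 574 codons, held 76.2%, 76.1% and 73.0% with IL-33 and 69.9%, 78.6% and 74.6% in untreated cells. Il1r2-201, of 410 codons, held 50.3% to 100% and Il18rap-201, of 614 codons, held 100% in 5 of 6 libraries and 49.2% in IL-33 replicate 1, where the retained-intron transcript Il18rap-203 held 50.8% on 8 deposited counts.

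Sigirr RNA was assigned to different transcripts in different libraries. Sigirr-201 held 100% in the replicates numbered 2 of both groups, with 36 deposited counts with IL-33 and 56 in untreated cells. Sigirr-203, of 409 codons like Sigirr-201, had 57, 0 and 0 deposited counts with IL-33 and 72, 0 and 63 in untreated cells. Sigirr-206, of 387 codons, had 54, 0 and 0 with IL-33 and 21, 0 and 36 in untreated cells. Sigirr-208, annotated as a retained intron, had 0, 0 and 60 deposited counts with IL-33 and 0, 0 and 9 in untreated cells. No Sigirr transcript was above 0 in all 6 libraries, at 9 to 28.75 fragments per library for the whole gene.

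The genes whose levels were most like that of Il1rap over the 6 libraries were Tarbp2 (Pearson r = 0.993), Dexi (0.991) and Ppard (0.988). They were taken by the highest r of log2 CPM among 12019 genes, of which 20 reached 0.95. The points share libraries and depth, and the values are a description over 6 libraries. Each of these genes, like Il1rap, was highest in untreated replicate 1.

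The rest of the pathway was described from lists of ligands and antagonists, remaining receptors of the family, shared signalling genes, target genes and processing enzymes. Of 57 tested genes, none passed with edgeR, 7 had an unadjusted p under 0.05 (against 6.74% of all genes tested), 39 had a log2 fold change above 0 and 18 below. DESeq2 called 3 of the 57, Ptgs2, Ccl2 and Ccl20, against 73 of all 15778 genes that passed the same filter. The median log2 fold change was 0.063 over all lists, against 0.0018 over all genes tested. It was 0.29 over 7 ligands and antagonists, 0.019 over 23 signalling genes, -0.063 over 5 shedding and processing enzymes and 0.19 over 21 targets. An unadjusted p under 0.05 was found for 2 of 7 ligands and antagonists, 5 of 21 targets, 0 of 23 signalling genes and 0 of 5 enzymes, against 6.74% of all genes tested. Of the remaining receptors of the family, Il1rl1 was tested and counts in the totals, and Il1rapl1 and Il1rapl2 were listed at 0 in every library.

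Among ligands, Il1a, which encodes IL-1 alpha, had 15.2 ± 4.27 FPKM with IL-33 and 17.9 ± 1.85 FPKM in untreated cells (SD, n = 3 each). Il1f6, which encodes IL-36 alpha, a ligand of the Il1rl2 receptor, had 35, 23 and 41 deposited counts with IL-33 and 0, 0 and 9 in untreated cells. All 3 untreated libraries were below the floor and the groups did not overlap (edgeR adjusted p = 0.622). Il1f9, which encodes IL-36 gamma, another ligand of that receptor, had 139, 75 and 137 deposited counts with IL-33 and 105, 34 and 67 in untreated cells (log2 fold change 0.86, edgeR adjusted p = 0.74).

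Among targets, Ptgs2, which encodes the inducible cyclooxygenase, had 50.6, 48.6 and 57.1 FPKM with IL-33 and 67.1, 61.8 and 65.0 FPKM in untreated cells. Its log2 fold change was -0.31 (edgeR adjusted p = 0.307; DESeq2 adjusted p = 0.00909). The chemokine gene Ccl2 had 10.2, 8.56 and 8.72 FPKM with IL-33 and 6.46, 5.71 and 4.79 FPKM in untreated cells (log2 fold change 0.70, edgeR adjusted p = 0.319; DESeq2 adjusted p = 0.0181). Ccl20 had 2.99, 2.15 and 4.04 FPKM with IL-33 and 1.53, 1.46 and 1.11 FPKM in untreated cells (log2 fold change 1.16, edgeR adjusted p = 0.368; DESeq2 adjusted p = 0.0279).

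Markers of other cells were low except for melanocyte markers. Keratinocyte markers summed to 34400 to 37100 CPM with IL-33 and 34400 to 35500 CPM in untreated cells. Melanocyte markers summed to 1090 to 1190 CPM with IL-33 and 1090 to 1150 CPM in untreated cells, with all 5 genes above the floor. Of the 7 T cell and NK markers, 6 (Cd3e, Cd3g, Trdc, Cd2, Ncr1 and Klrb1c) were listed at 0 in every library. The other marker, Thy1, had 124, 148 and 140 deposited counts with IL-33 and 147, 154 and 190 in untreated cells. The list sums, all of it Thy1, were 2.82 to 4.34 CPM with IL-33 and 3.28 to 4.19 CPM in untreated cells. Mast cell markers summed to 15.6 to 19.5 CPM with IL-33 and 17.1 to 20.5 CPM in untreated cells, most of it Kit, with Cpa3, Mcpt4 and Tpsb2 listed at 0. The sums for macrophages and dendritic cells were 9.63 to 12.5 CPM with IL-33 and 9.59 to 10.7 CPM in untreated cells. Most of each sum was Csf1r, and Cd207 and Itgam were listed at 0. H2-Ab1 had 0, 0 and 29 deposited counts with IL-33 and 19, 24 and 24 in untreated cells. Adgre1 had 0, 5 and 16 with IL-33 and was listed at 0 in untreated cells. Ptprc had 7 in IL-33 replicate 3 and Cd74 had 4 in untreated replicate 3, and both were listed at 0 elsewhere. Fibroblast markers summed to 26.5 to 31.0 CPM with IL-33 and 29.7 to 38.1 CPM in untreated cells, endothelial markers to 16.3 to 17.1 CPM with IL-33 and 13.5 to 19.8 CPM in untreated cells, and neutrophil markers to 1.25 to 2.7 CPM with IL-33 and 0.916 to 1.57 CPM in untreated cells. The part of these cells in the receptor values was not tested.

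Il1rap shares 552 exon bases with the antisense gene Gm20319, which had 96 to 167 deposited counts with IL-33 and 120 to 134 in untreated cells. No source used here says whether the counting used strand, so reads of the pair cannot be told apart there.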

How the data were processed

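Per the labels, messenger RNA libraries were sequenced from 3 IL-33 and 3 untreated samples. The deposited estimated counts and FPKM, per the file headers, cover genes and transcripts, and the tools HISAT2 2.1.0, StringTie 1.3.4d, FastQC 0.11.7 and DESeq2 1.18.1 and the build mm10 come from the submitters' processing notes. The deposited counts are whole numbers but not raw reads: low transcript values rebuilt from FPKM and length pile near multiples of 4. Gene positions come from GENCODE M21, which has 97.16% of the deposited transcript identifiers with the same version.

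Groups were compared with edgeR 4.0.16 (R 4.3.3, quasi-likelihood, TMM, filterByExpr with a minimum count of 10) across all features, with Benjamini-Hochberg adjustment at 0.05. Log2 fold changes run as IL-33 minus untreated. CPM values are the deposited counts scaled by TMM. Alternatives were other scalings and filters, DESeq2 1.42.0, limma 3.58.1 (voom, and log2 of FPKM plus 0.1 or 1), the replicate block, leaving out 1 library at a time and, added after the data were seen, counts divided by 4. The scripts were tested on simulated data. Libraries differed by more than sampling noise, so none was counted as a copy. The members and lists were chosen with earlier results of these data known.

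The named genes are all 7 members and their transcripts, Il1rl1, the 4 pathway genes with the smallest p, markers by sums and defining genes, and the 3 genes most like Il1rap. A hydrophobic stretch is a window of 19 residues, past residue 50, with a mean Kyte-Doolittle value of at least 1.6. Any other gene or form named was chosen after its values were seen.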

Additional observations from a re-analysis of the deposited data

How the results depend on the processing

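No member gene was called at any of the 17 settings, and the 70 log2 fold changes of members under settings other than a left-out library kept their direction, as did 79 of member transcripts. With a library left out, 7 of 42 gene values and 18 of 102 transcript values changed sign: Il1r2 ranged from -0.07 to 0.98, Il18rap from -0.15 to 0.19, Sigirr from -0.55 to 0.10, and, for transcripts, Il18r1-203 from -0.85 to 0.54, Il18r1-204 from -1.36 to 1.3, Il18rap-201 from -0.21 to 0.13, Il1r1-202 from -0.04 to 0.05, Il1r1-203 from -0.07 to 0.57, Il1rap-202 from -0.96 to 0.37 and Sigirr-206 from -7.16 to 0.81. The 11 genes called became 73 with DESeq2, 17 with no filter, 6 and 4 with limma on log2(FPKM + 0.1) and log2(FPKM + 1), and 11 to 90 with a library left out (90, 20 and 18 when IL-33 replicate 3, IL-33 replicate 1 and untreated replicate 3 were omitted). The 12 transcripts called became 822 with DESeq2 and 6 to 28 with a library left out (28, 7 and 6 when IL-33 replicate 3, IL-33 replicate 1 and untreated replicate 2 were omitted). Pathway genes called were 3 with DESeq2 and 0 to 1 with a library left out (1 without IL-33 replicate 3). The causes were not tested. Whether replicate numbers shared by both groups pair the libraries cannot be told from these values. Correlations of deviations between libraries of the same number were small (0.066, 0.086 and 0.02). Each untreated library correlated best with the IL-33 library of its own number, but IL-33 replicate 3 correlated best with untreated replicate 1 (0.037). With the replicate block, 8 genes and 0 transcripts were called, no member among them. CPM per kilobase of exon gave 3.05 for Il1rap, 14.4 for Il1r1 and 9.56 for Il1rl2, and summed transcript FPKM gave 7.08, 17.4 and 17.8 for these and 0.69 for Il1r2, 1.51 for Il18r1, 0.303 for Il18rap and 0.995 for Sigirr, by their construction. The Il1rap share differences ranged, with a library left out, from -0.329 to 5.5 points for the 570-codon form (negative without untreated replicate 3), from -0.258 to 0.324 for the alternative last exon and from -2.54 to 0.0932 for the soluble form. Depth limits Sigirr, Il18rap and Il1r2 most, at no more than 28.75 fragments per library.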
